A study of Mus musculus with 65 samples.

Results

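Btg1, Btg2 and Tob1 are 3 antiproliferative genes of the BTG/TOB family, and they were described here across 65 single hematopoietic stem cells of aged mice. They were found by their NCBI gene identifiers among the 18036 rows of the count table, of which 6826 held any count, and all 3 matched. The other family genes Btg3, Btg4 and Tob2 are not analysed here. The cells came from the marrow of femora and tibiae of mice of the strain SCL-tTAxH2B-GFP, double heterozygous and over 20 months old. They were sorted singly as lineage-depleted Sca-1+ Kit+ cells that were CD34-/low, Flk2-, CD48- and CD150+, which is the surface phenotype of long-term stem cells. In these mice an SCL-driven transactivator controls a histone H2B-GFP label, which each cell division dilutes once the label is no longer made. GFP-positive cells (label-retaining, 37 cells) were compared with GFP-negative cells (non-label-retaining, 28 cells). Before lysis all cells were held overnight in medium free of growth factors, at 3% oxygen, so neither group shows stem cells straight from the marrow. The 4 biological repeats held 9, 9, 10 and 9 cells of the label-retaining group and 8, 4, 6 and 10 of the other. The labels do not say how many mice gave a repeat. The repeat was the unit of every test, so each comparison set 4 values against 4.

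Proteins of the BTG/TOB family are small adaptors that slow cell proliferation. Through a conserved amino-terminal domain they bind the deadenylase subunits of the CCR4-NOT complex, which shortens the poly(A) tails of mRNAs and so starts their decay. Btg1 and Btg2 are known for holding lymphocytes in quiescence, and Btg2 is a classical target gene of p53 and is also switched on quickly by growth and stress signals. Tob1 carries in addition a motif that binds the poly(A)-binding protein, and it is known for restraining T cell activation. Because quiescence is the property by which label retention sorts stem cells, these genes are of interest in this comparison.

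The sequence just upstream of each gene is shown as a description, and no link between its letters and the counts of the genes was tested. The 250 bases before the annotated start were taken from RefSeq for GRCm38.p6, the build that matches the mm10 of the deposited data. All 3 genes lie on ordinary autosomes, Btg1 at chr10:96617001-96622813 on the plus strand, Btg2 at chr1:134074865-134079155 on the minus strand and Tob1 at chr11:94209842-94215495 on the plus strand. The windows are chr10:96616751-96617000, chr1:134079156-134079405 and chr11:94211204-94211453, printed 5′ to 3′ on the strand of the gene. For Tob1 the RefSeq window precedes a start that lies inside the annotated span of the gene and not at its first base. Capitals mark exact matches on either strand to the letters of 3 common promoter elements. The first is ACGTCA, the core of a cyclic AMP response element. The second is TATAAA, the letters recognised by TATA-binding protein. The last is CCAAT, bound by the factor NF-Y and seen as its reverse complement where it lies on the other strand.
Btg1: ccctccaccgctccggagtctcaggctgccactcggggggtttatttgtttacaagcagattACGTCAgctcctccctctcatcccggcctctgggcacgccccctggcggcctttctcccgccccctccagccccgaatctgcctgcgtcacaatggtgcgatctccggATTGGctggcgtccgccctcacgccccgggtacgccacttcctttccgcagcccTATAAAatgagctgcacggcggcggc
Btg2: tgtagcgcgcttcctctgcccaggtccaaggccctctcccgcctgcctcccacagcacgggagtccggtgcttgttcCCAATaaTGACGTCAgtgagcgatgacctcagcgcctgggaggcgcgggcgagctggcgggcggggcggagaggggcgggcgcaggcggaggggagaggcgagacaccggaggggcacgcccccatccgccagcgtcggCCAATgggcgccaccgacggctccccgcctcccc
Tob1: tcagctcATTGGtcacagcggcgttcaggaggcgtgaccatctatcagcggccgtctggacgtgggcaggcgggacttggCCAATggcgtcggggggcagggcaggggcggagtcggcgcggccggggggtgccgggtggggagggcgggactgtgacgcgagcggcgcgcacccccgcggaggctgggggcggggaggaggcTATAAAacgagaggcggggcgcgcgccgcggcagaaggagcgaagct
Btg1 and Btg2 each held the ACGTCA letters, starting 188 and 164 bases before the start, and Tob1 did not. In Btg2 the match on the opposite strand overlapped the first, which together spell TGACGTCA. Of 32851 RefSeq windows of this length, 6.47% held ACGTCA on either strand. TATAAA stood 26 bases before the start in Btg1 and 47 bases before it in Tob1, was not in the Btg2 window, and occurred in 12.4% of all windows. All 3 windows held CCAAT or its complement, as did 33.8% of all windows. These matches describe the letters only, since the table counts reads per gene and says nothing of which start was used.

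Depth and likeness of the libraries bear on every value below. Total counts ran from 27954 to 20516069 in label-retaining cells (median 264894) and from 86 to 661078 in non-label-retaining cells (median 118056), of which 4 had under 10000 counts. Some libraries resembled each other far more than single cells of a repeat usually did. The Pearson correlation of log2(counts per 10000 + 1) over all genes but the 3 described here had a median of 0.265 over 2080 pairs and reached 0.539 between repeats. It exceeded 0.85 in 7 pairs, all within a repeat, which joined 11 libraries into 5 sets. The closest pair spanned the groups: label-retaining cell 3 and non-label-retaining cell 3 of repeat 1 had r = 0.982 and 2158 genes in common, although their totals differed 60.3-fold. Label-retaining cells 20, 21 and 22 of repeat 3 had r between 0.880 and 0.977. The other sets were non-label-retaining cells 11 and 12 (r = 0.860), 13 and 14 (r = 0.901) and 22 and 23 (r = 0.886). The labels number each library by its index pair, and 5 of the 7 pairs had numbers next to each other. No pair agreed within counting noise, and what they share was not tested, so the detection and level of each gene are given with all cells and with only the deepest library of each set.

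**Figure D1:**
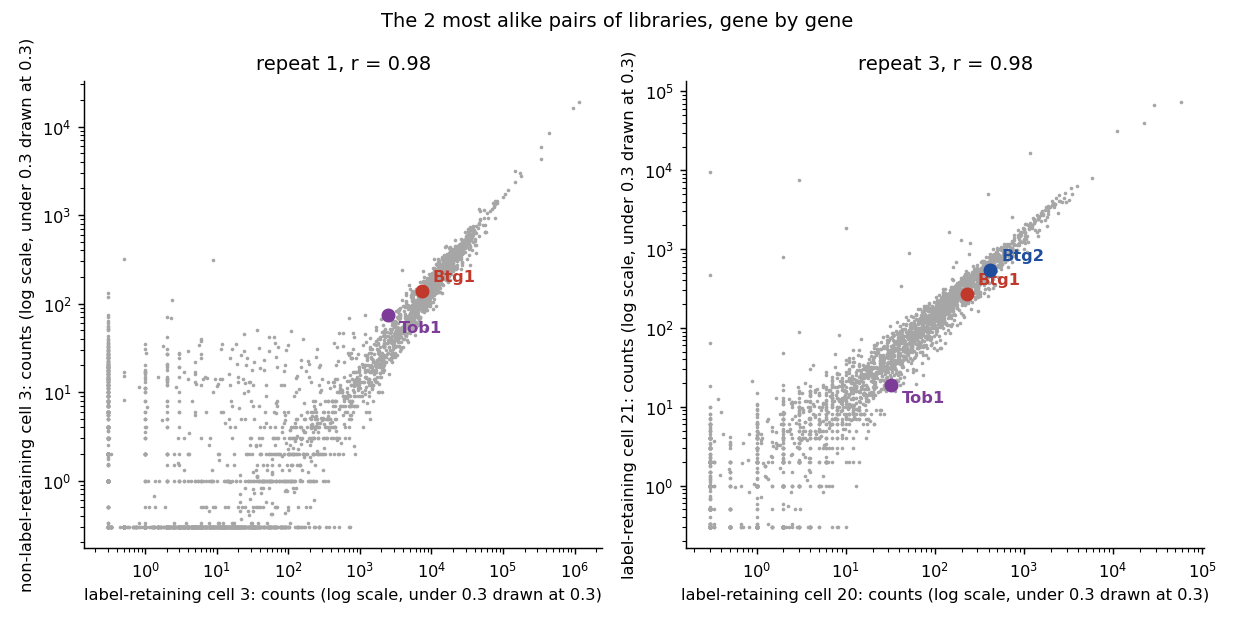
Counts per gene (log scales) in the 2 pairs of libraries with the highest correlation, with each grey point a gene and the described genes in colour. Btg1 and Tob1 lie within or close to the cloud that joins label-retaining cell 3 and non-label-retaining cell 3, and all 3 genes lie close to the cloud that joins label-retaining cells 20 and 21.

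The resemblance extended to the described genes. Btg1 made up 3.60 counts per 10000 in label-retaining cell 3 and 4.06 in non-label-retaining cell 3 (7386 and 138 counts). Tob1 stood at 1.21 and 2.17 per 10000 in the same cells (2484 and 74 counts), and Btg2 had no count in either. In cells 20, 21 and 22, Btg2 stood at 7.72, 6.11 and 3.67 per 10000, the 3 highest values of that gene in any cell.

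Btg1 was the most widely detected of the 3 genes. It had a count in 30 of 37 cells that kept the label and in 11 of 28 that did not. By repeat it was detected in 88.9, 77.8, 90.0 and 66.7% of label-retaining cells and in 50, 50, 50 and 20.0% of non-label-retaining cells. Every label-retaining repeat lay above every non-label-retaining repeat. The means were 80.8% ± 10.9 and 42.5% ± 15.0 (SD, n = 4 repeats each), a difference of 38.3 points with an exact two-sided permutation p of 0.0286, the smallest that 4 against 4 can give. Such a separation was common: 8.48% of the 3489 genes with a count in at least 10 cells had label-retaining repeats that all lay above the others, and 0% the reverse. Adjusted over those genes by the Benjamini-Hochberg method, the exact p for Btg1 was 0.337. With the repeats paired by number, exact sign flips gave p = 0.125, the smallest they can give, with 4 of 4 repeats higher in label-retaining cells. With only the deepest library of each resembling set, Btg1 was detected in 28 of 35 and 8 of 24 cells, a difference of 45.6 points (exact permutation p = 0.0286). Without the pair that spans the groups the difference was 39.8 points (exact permutation p = 0.0286). At these settings 320 and 332 of the 3489 genes, in that order, had an exact permutation p under 0.05.

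Many of the Btg1 detections were of few counts. Of the 41 cells with Btg1, 17 had fewer than 10 counts of it, among them non-label-retaining cell 10 with 0.5 of a count. Counting only cells with at least 10 counts of Btg1, the difference was 27.4 points (exact permutation p = 0.143). Without the 4 shallowest cells it was 31.1 points (exact permutation p = 0.0571), and without the 4 label-retaining and 9 non-label-retaining cells under 50000 counts it was 43.6 points (exact permutation p = 0.0286). Label-retaining cells with Btg1 had a median total of 528037 counts and those without it 65910. Among non-label-retaining cells the medians were 123332 and 112781. The part of depth in the detection was not tested. To set cells at equal depth, the probability that a cell keeps a Btg1 count when only 10000 of its counts are drawn was averaged over the cells of a repeat. This thinned share was 48.6, 34.6, 55.7 and 28.7% in label-retaining repeats and 36.7, 12.2, 44.4 and 12.9% in non-label-retaining repeats. The groups overlapped, although each label-retaining repeat stood above the non-label-retaining repeat of the same number. The means were 41.9% ± 12.4 and 26.6% ± 16.4 (SD, n = 4), a difference of 15.3 points (exact permutation p = 0.200, adjusted 0.820). With only the deepest library of each resembling set it was 20.5 points (exact permutation p = 0.0857). Thinned instead to 50000 counts, which leaves out those under that depth, the difference was 43.9 points and the repeats of the groups did not overlap (exact permutation p = 0.0286). The share of all genes that separate is not given for this depth, nor for the 43.6 points above. Neither value can thus be set against a background.

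**Figure D2:**
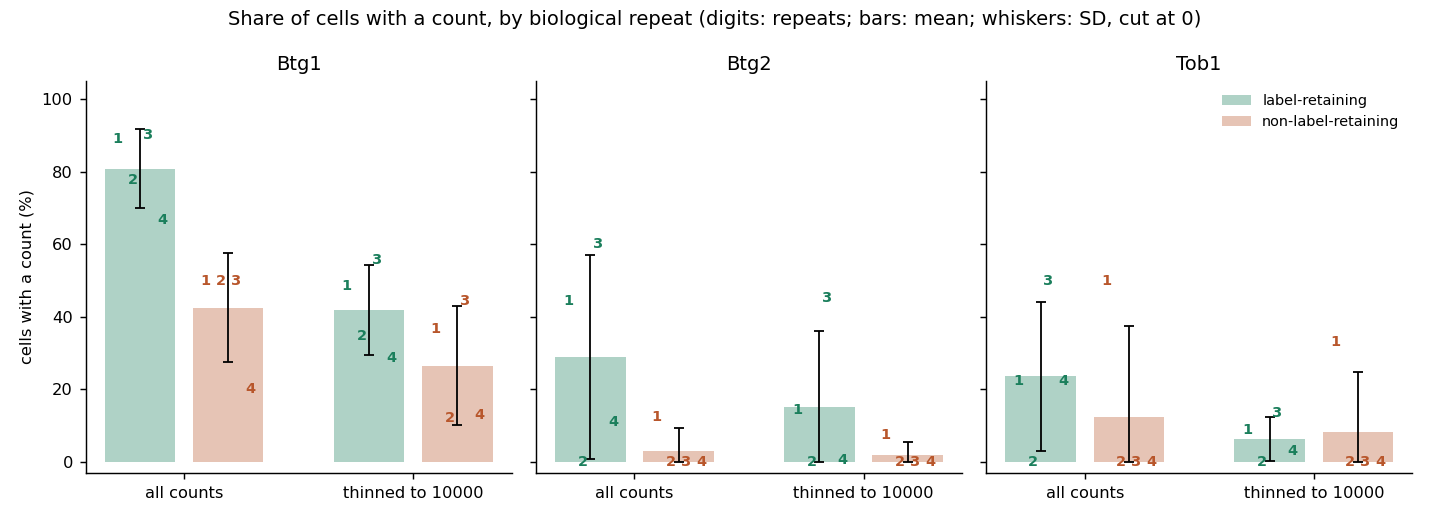
Share of cells with a count of each gene, from all counts and thinned to 10000 counts, with digits for the 4 biological repeats, bars for their mean and whiskers for the SD (not drawn below 0). The Btg1 shares of label-retaining cells lie between 66.7 and 90.0% and those of non-label-retaining cells between 20.0 and 50% from all counts, and they overlap after thinning.

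The level of Btg1 did not follow its detection. In the label-retaining cells that had it, Btg1 ran from 0.0143 to 9.05 counts per 10000 with a median of 0.564. In the non-label-retaining cells that had it, it ran from 0.0353 to 412.5 with a median of 1.63. These medians are not matched in depth. The lowest level a cell can show falls as its total rises, and the cells with Btg1 had median totals of 528037 and 123332 counts. The highest 3 values were all in non-label-retaining cells of different repeats. Cell 28 of repeat 4 held 6836 counts of Btg1, 4.13% of all its counts, and only 2 genes of that cell had more. Cell 1 of repeat 1 held 315 counts (166.2 per 10000), and cell 17 of repeat 3 held 1557 (23.6 per 10000). Cell 28 had only 588 genes detected, against 1558 in cell 1 and 1122 in cell 17. In label-retaining cells the highest levels were 9.05 per 10000 in cell 11 and 7.40 in cell 16, both of repeat 2. The 4 label-retaining repeats had a mean level per cell of 1.25, 1.99, 1.64 and 0.655 counts per 10000. The non-label-retaining repeats stood at 24.4, 0.153, 4.50 and 51.6. The repeats of the non-label-retaining group lay on both sides of the other group. Their means, 1.38 ± 0.570 and 20.2 ± 23.5 counts per 10000 (SD, n = 4), differed by -18.8 (label-retaining minus non-label-retaining; exact permutation p = 0.143, adjusted 0.716). With only the deepest library of each resembling set the difference was -19.8, and without non-label-retaining repeat 4, which holds cell 28, it was -8.31. Of all genes tested, 70.3% had the higher mean level in label-retaining cells, and 4.99% lay wholly above and 0.115% wholly below. A mean over log2(counts per 10000 + 1), on which the 3 high cells weigh less, kept the sign with p = 0.629 in the exact permutation test.

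**Figure D3:**
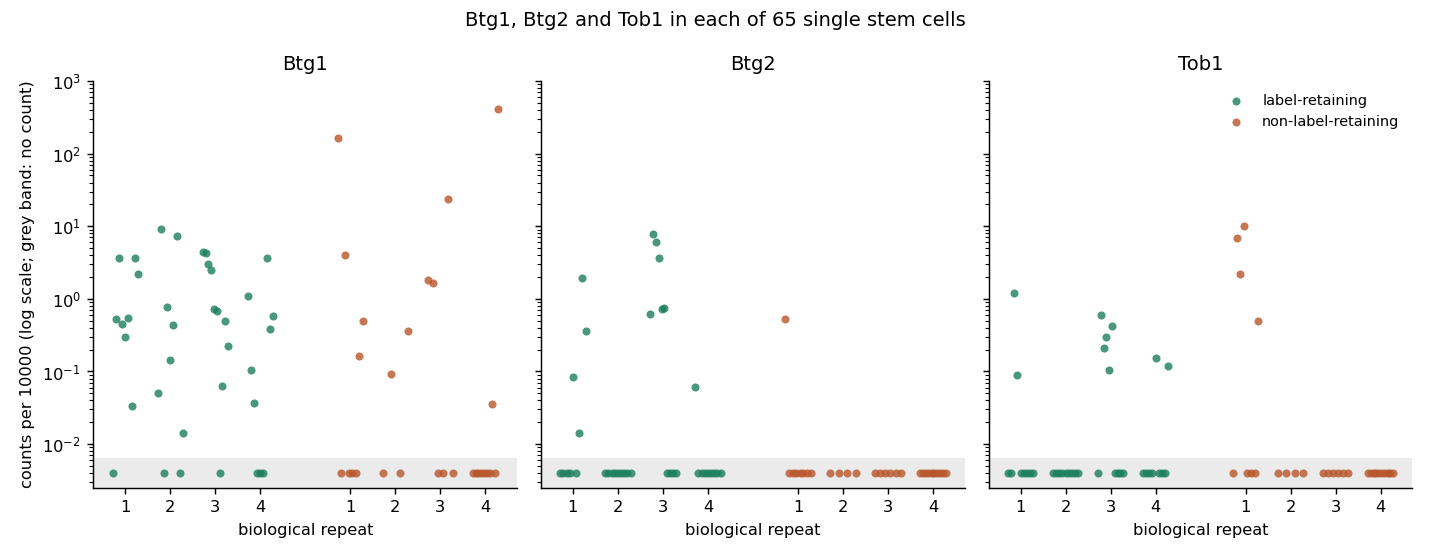
Counts per 10000 (log scale) of Btg1, Btg2 and Tob1 in each of the 65 cells, by biological repeat, label-retaining in green and non-label-retaining in orange, with cells without a count in the grey band. The 3 highest Btg1 values, from 23.6 to 412.5, are non-label-retaining cells, whereas 11 of the 12 cells with Btg2 are label-retaining.

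Summed over the cells of each repeat, Btg1 had 8560, 3811, 808 and 79 counts in label-retaining and 457, 2, 1620 and 6837 in non-label-retaining cells. Single cells carried these sums, with 86.3% of the first coming from label-retaining cell 3 and nearly all of the last from cell 28. The log2 fold change was -5.25 ± 2.71 (SE; edgeR quasi-likelihood test, adjusted p = 0.470), and with repeat as a block it was -2.60 ± 3.48 (adjusted p = 0.782). The size of this change depended on the setting, with -2.53 when total counts replaced the TMM scaling, -3.38 without the filter on low counts, -3.44 without non-label-retaining repeat 4 and -3.15 without repeat 4 of both groups. The TMM factors were low in non-label-retaining repeats 3 and 4 (0.290 and 0.223), which hold cells 17 and 28. The median log2 fold change of all genes tested was 1.15, and 1.78 with total counts. In that test 0 of 2786 genes passed the adjusted threshold of 0.05 (0%), while an unadjusted p under 0.05 was reached by 180 genes higher (6.46%) and 122 lower (4.38%) in label-retaining cells. With total counts these were 230 and 43 genes. With DESeq2, the call was made for 11 of the 2088 genes to which it gave an adjusted p (0.527%), and Btg1 was not among them (log2 fold change -5.66 ± 1.71, adjusted p = 0.0884). This SE is the one DESeq2 reports. Each SE given with edgeR was instead computed as the absolute log2 fold change divided by the square root of the quasi-likelihood F statistic.

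Btg2, the p53-responsive member, had counts in 11 of 37 label-retaining cells and in 1 of the 28 others. By repeat, 44.4, 0, 60.0 and 11.1% of label-retaining cells and 12.5, 0, 0 and 0% of non-label-retaining cells had it. The absence in single repeats is loosely bound, since 0 of 9 label-retaining cells of repeat 2 allows a share of cells with a count of up to 33.6%. For 0 of 4, 0 of 6 and 0 of 10 non-label-retaining cells the limits are 60.2, 45.9 and 30.9% (upper ends of exact Clopper-Pearson 95% intervals, covering counting error only). The means were 28.9% ± 28.1 and 3.13% ± 6.25 (SD, n = 4), a difference of 25.8 points, with label-retaining cells higher in 3 of 4 repeats and no Btg2 in either group of the other repeat. The groups overlapped (exact permutation p = 0.257, adjusted 0.525), and the background of genes without overlap is the same 8.48%. Thinned to 10000 counts, the shares were 14.3, 0, 45.2 and 0.674% against 7.54, 0, 0 and 0%, with means of 15.1% ± 21.2 and 1.89% ± 3.77 (exact permutation p = 0.257, adjusted 0.820).

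The cells with Btg2 stood close together in the numbering. In repeat 3 the 6 label-retaining cells numbered 19 to 24 held 15, 418, 546, 255, 7 and 9 counts of Btg2, and cells 25 to 28 held none. In repeat 1, cells 5, 7, 8 and 9 held 14, 6, 467 and 2 counts. In repeat 4, cell 29 held a single count. The only non-label-retaining cell with Btg2 was cell 1 of repeat 1, with 1 count among 18958. By the library numbers of the labels, cells 19 to 24 ran from 38 to 43 without a gap, and label-retaining cells 7, 8 and 9 and non-label-retaining cell 1 from 12 to 15. Thus 10 of the 12 libraries with Btg2 had a neighbour by number that also had it. The numbers run in blocks of a single repeat and group, so a gene concentrated in a block has such neighbours. No share is given for other genes found in as few cells. Label-retaining cells 8 and 9 and non-label-retaining cell 1 also resembled each other, with r of 0.765, 0.719 and 0.741 for the 3 pairs. Over all libraries of the same repeat and group, neighbours by number had a median r of 0.437 (55 pairs) and other pairs 0.296 (192 pairs). The part of this neighbourhood in the Btg2 counts was not tested.

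With only the deepest library of each resembling set, Btg2 was detected in 9 of 35 label-retaining cells and in 1 of 24 others. The mean level per cell over the repeats was 0.270, 0, 1.96 and 0.00674 counts per 10000 in label-retaining and 0.0754, 0, 0 and 0 in non-label-retaining cells. Repeat 3 thus stood above all other repeats of either group. The difference of the means was 0.54 counts per 10000 (exact permutation p = 0.257), and 0.30 with the deepest library of each set. Summed over repeats there were 489, 0, 1250 and 1 counts in label-retaining and 1, 0, 0 and 0 in non-label-retaining cells. Over all cells this is 34.6 against 0.206 counts in 1000000, a ratio of 168.2 with an exact 95% counting interval of 30.1 to 6647, which leaves out the spread between cells and repeats. The edgeR quasi-likelihood test, whose fold change depends on the prior count for so few reads, gave an adjusted p of 0.352 and, with repeat as a block, 0.594. Without label-retaining repeat 3, the fitted log2 fold change was 3.22 in place of 8.05. The difference in detection share was then 15.4 points, or 3.11 points thinned, and that in mean level 0.0734 counts per 10000.

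Tob1, the member that also binds poly(A)-binding protein, was the least regular of the 3. It had counts in 9 of 37 label-retaining cells and in 4 of the 28 others. By repeat, the share of cells with it was 22.2, 0, 50 and 22.2% in the label-retaining group and 50, 0, 0 and 0% in the other. All 4 non-label-retaining cells with Tob1 belonged to repeat 1, where their share was above that of label-retaining cells, whereas repeats 3 and 4 lay the other way. The means of 23.6% ± 20.5 and 12.5% ± 25.0 (SD, n = 4) did not separate (exact permutation p = 0.657, adjusted 0.785). Thinned to 10000 counts, they were 6.34% ± 6.07 and 8.28% ± 16.6, with the sign turned (exact permutation p = 1.0). With only the deepest library of each resembling set, Tob1 was detected in 7 of 35 and 3 of 24 cells, with a thinned difference of -0.98 points and a difference in mean level of -0.37 counts per 10000, against -1.94 and -0.37 with all cells.

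The Tob1 counts per cell show how few reads lie behind these shares. Label-retaining cell 3 held 2484 counts, 95.8% of all Tob1 counts of that group, in the deepest library of the series. The others held 29 (cell 4), 32, 19, 21, 1 and 5 (cells 20 to 24) and 1 each (cells 33 and 37). Non-label-retaining cells 2, 3, 4 and 8 held 2, 74, 17 and 2 counts, of which cell 2 had a total of only 2938 counts. Relative to depth, non-label-retaining cell 4 was highest with 10.03 counts per 10000, and no label-retaining cell exceeded 1.21. The mean levels per cell, 0.0843 ± 0.0814 and 0.453 ± 0.907 counts per 10000 (SD, n = 4), overlapped (exact permutation p = 1.0). For the sums per repeat (2513, 0, 78 and 2 against 95, 0, 0 and 0) the log2 fold change was -0.17 ± 2.19 (edgeR quasi-likelihood test, adjusted p = 0.963) and 2.36 ± 3.15 with repeat as a block (adjusted p = 0.782). No direction can be read for Tob1, because single repeats and settings turn its sign.

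**Figure D4:**
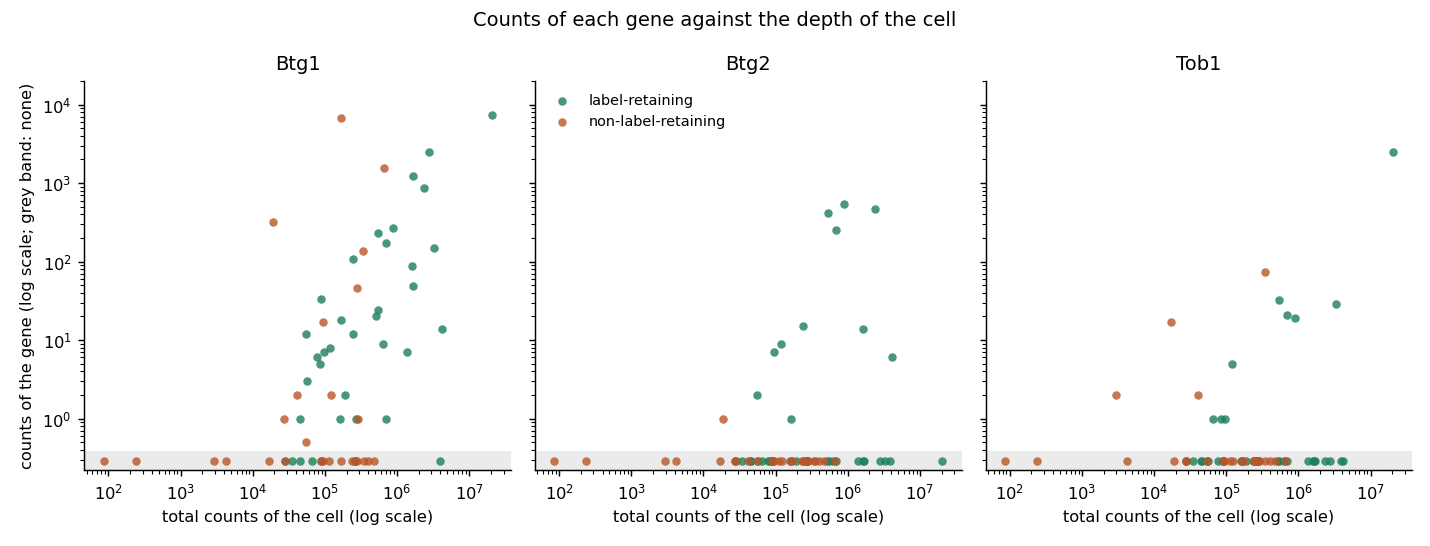
Counts of each gene against the total counts of the cell (both log scales; cells without a count in the grey band). Label-retaining cells reach totals up to 20516069 and non-label-retaining cells up to 661078. Btg1 is present in 16 of the 17 label-retaining cells with 340279 or more counts and in 2 of 5 such non-label-retaining cells, which are not matched in depth.

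To set detection beside depth, the 65 cells were divided by total counts into 3 classes. In the deepest class (340279 counts or more) 16 of 17 label-retaining cells and 2 of 5 others had Btg1. In the middle class (89768 to 283600 counts) it was detected in 8 of 9 and 5 of 13 cells. In the shallowest class (up to 89535 counts) it was detected in 6 of 11 and 4 of 10. Btg2 was detected in 6 of 17, 4 of 9 and 1 of 11 label-retaining cells from the deepest to the shallowest class, and in 0 of 5, 0 of 13 and 1 of 10 non-label-retaining cells. For Tob1 the numbers were 5 of 17, 2 of 9 and 2 of 11 in the label-retaining group and 1 of 5, 0 of 13 and 3 of 10 in the other. Depth was not matched within the deepest class, where label-retaining cells reached 20516069 counts and the others 661078. The cells of a class also come from several repeats in unequal numbers, so the detection counts by class are a description.

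The 3 genes were nested in their cells to different degrees. Each of the 12 cells with Btg2 also had Btg1, and 5 of them had Tob1 as well. Of these 12 cells 11 were label-retaining, a group in which 30 of 37 cells had Btg1. Of the 13 cells with Tob1, 10 had Btg1 and 3 had neither of the other genes. All 3 genes were found together in 5 label-retaining cells, which were cells 20 to 24 of repeat 3, and in 0 of 28 non-label-retaining cells. None of the 3 was found in 21 cells, 6 label-retaining and 15 non-label-retaining. In the cells that had the gene, the median level per kilobase of transcript (GENCODE lengths of 5.001, 2.743 and 2.288 kb) was 0.117 counts per 10000 for Btg1, 0.245 for Btg2 and 0.184 for Tob1. The ranges of the 3 genes overlapped widely. Across the 61 cells with at least 10000 counts, Spearman's rho of counts per 10000 was 0.45 between Btg1 and Btg2, 0.26 between Btg1 and Tob1 and 0.31 between Btg2 and Tob1. The cells share libraries of unequal depth, and rho with the number of genes detected in the cell was 0.53 for Btg1, 0.46 for Btg2 and 0.34 for Tob1.

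The genes most like each member were picked by their rho in these same cells. Their rho is high by this selection and cannot be set against that between the 3 members. Among genes with a count in at least 10 cells, the 5 most like Btg1 across the 61 cells included Ubxn4 (Spearman's rho 0.65), Shisa5 (0.62), Alkbh1 (0.59) and Smg1 (0.58). The median over 3486 genes was 0.22. Those most like Btg2 were Chsy1 (0.78), Bcas3 (0.78), Ubr7 (0.76), Ipmk (0.75) and Mpg (0.74), with a median of 0.21 over all genes. Chsy1 was detected in 13 cells, 10 of them with Btg2. Those most like Tob1 were Lockd (0.78), Cdcp1 (0.69), Clpb (0.68), Kat8 (0.67) and Hint3 (0.66), with a median of 0.16. For genes in so few cells the resembling libraries weigh on rho. With only the deepest library of each set (56 cells), Chsy1 stood at 0.72 with Btg2 and Lockd at 0.71 with Tob1, while Cdcp1 fell to 0.57 with Tob1 and Ubxn4 stood at 0.64 with Btg1.

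The difference in Btg1 detection stood against a wide background, since nearly all genes were detected in more label-retaining cells. The mean detection share was higher in label-retaining cells for 3260 of 3489 genes (93.4%), with a median difference of 19.4 points. The 38.3 points of Btg1 exceeded the difference of 92.7% of these genes, the 25.8 points of Btg2 that of 69.2% and the 11.1 points of Tob1 that of 25.2%. After thinning to 10000 counts, 2633 genes (75.5%) were higher with a median of 6.32 points, 161 (4.61%) lay wholly above and 4 (0.115%) wholly below. The thinned differences of Btg1 (15.3 points), Btg2 (13.2) and Tob1 (-1.94) exceeded those of 79.3, 73.8 and 18.3% of the genes. The lowest adjusted p of any gene was 0.337 from all counts and 0.604 after thinning.

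**Figure D5:**
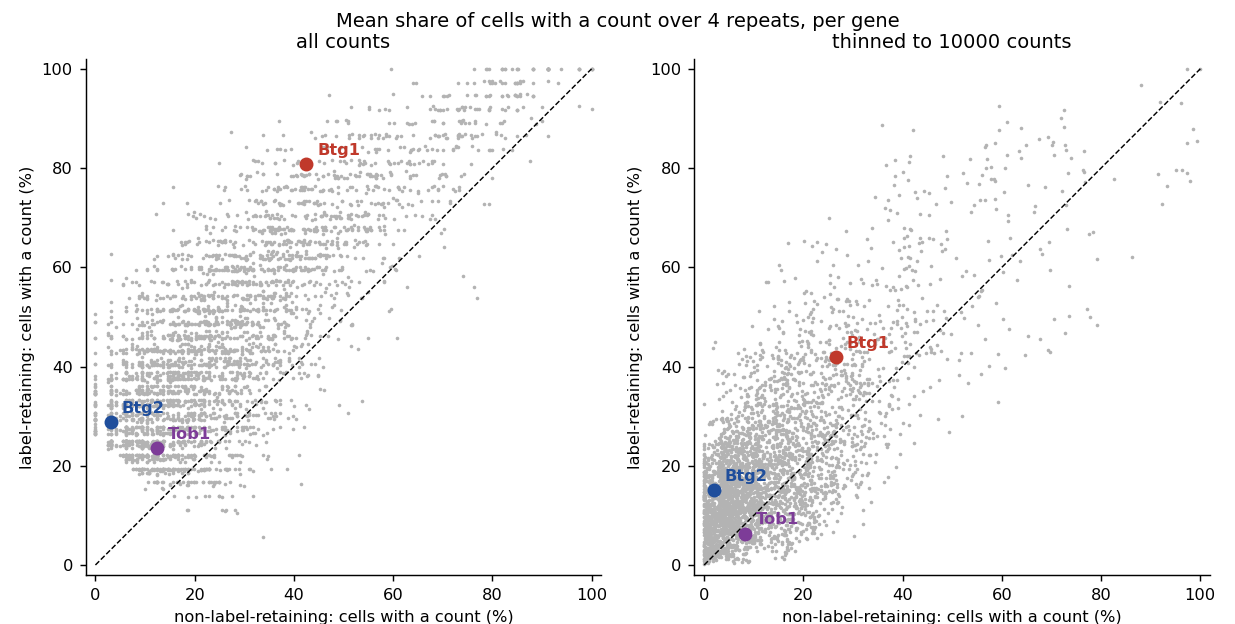
Mean share of cells with a count over 4 repeats in label-retaining against non-label-retaining cells for the 3489 genes with a count in at least 10 cells (grey), with Btg1, Btg2 and Tob1 in colour and the line of equality dashed. Most genes lie above the line, 93.4% from all counts and 75.5% after thinning, and after thinning Tob1 lies just below it.

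The partners through which these proteins act were then counted in the same way. The CCR4-NOT complex removes poly(A) tails, and 7 of its 12 listed genes were tested. All 7 tested genes had a higher mean detection share in label-retaining cells, with a median difference of 26.7 points, and 0 of 7 separated the groups (background 8.48%). Cnot10, a subunit of the complex, was detected in 21 label-retaining and 2 non-label-retaining cells (51.5 points), and the deadenylase Cnot8, a direct partner of BTG and TOB proteins, in 17 and 3 (36.7 points). Cnot3 was detected in 28 and 14 cells and Cnot4 in 17 and 6. After thinning all 7 were still higher, with a median of 16.5 points, and again 0 separated. Of the adaptors that bring CCR4-NOT to mRNAs, 9 of 21 were tested, 8 higher and 1 lower (Tnrc6a, an Argonaute partner, -2.99 points), with a median of 26.4 points. Pum2, an RNA-binding protein of the Pumilio family, was detected in 31 and 9 cells (46.6 points), and Zfp36l1, which binds AU-rich elements, in 12 and 1 (28.1 points). Both lay wholly above in label-retaining repeats. The minimum of 10 cells for a test counts both groups together, and Zfp36l1 met it through its label-retaining cells. That group had more and deeper cells, so genes found there meet this minimum more easily. The background genes met the same minimum. Tnrc6c, also an Argonaute partner, was detected in 34 and 14 cells and Rc3h1, the RNA-binding protein Roquin-1, in 14 and 2. After thinning all 9 were higher with a median of 13.1 points, and Zfp36l1 alone lay wholly above (17.6 against 0.160%).

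The other enzymes of poly(A) tails and mRNA decay were counted next, beside the same backgrounds (93.4% higher from all counts, 75.5% after thinning). Of the other deadenylases and poly(A) binding genes, 4 of 13 were tested and all 4 were higher, with a median of 20.0 points, but after thinning 2 were higher and 2 lower with a median of 3.22. The poly(A)-binding protein partner Paip2 was detected in 29 and 14 cells, Paip1 in 36 and 24, and the deadenylase genes Pan2 in 18 and 5 and Pan3 in 18 and 8. Of the decapping and 5′ decay genes, 5 of 18 were tested and all 5 were higher (median 21.6 points), and 3 were higher and 2 lower after thinning (median 1.91). Lsm5, a ring protein of the decay machinery, was detected in 16 and 2 cells and lay wholly above (38.3 points), although not after thinning. Lsm1 was detected in 23 and 10 cells, Lsm3 in 9 and 1 and Lsm7 in 16 and 7.

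Of the genes upstream and around the family, many had no row in the count table and others had counts in too few cells to test. The table held 12 of the 20 listed binding partners and regulators and 13 of the 22 listed p53 target genes. Of the binding partners and regulators, 6 of 20 were tested, 4 higher and 2 lower (Smad2, -6.32 points, and Mapk3, -6.04), with a median of 9.62 points and, after thinning, 3 higher and 3 lower. Trp53, the p53 gene itself, was detected in 10 label-retaining and 2 non-label-retaining cells (21.5 points), the signal mediator Smad4 in 16 and 4, the glucocorticoid receptor Nr3c1 in 13 and 6 and the transcription factor Nrf1 in 15 and 9. Of 22 p53 target genes, 9 were tested. All 9 were higher, with medians of 25.7 points and, after thinning, 13.0 points, and 0 of 9 separated the groups in either measure. For all genes tested, 93.4% were higher from all counts and 75.5% after thinning, with medians of 19.4 and 6.32 points. Wholly above lay 8.48 and 4.61% of them. The p53 inhibitor Mdm2 was detected in 21 and 6 cells (37.6 points), the cell death genes Bax and Bbc3 in 21 and 7 and in 15 and 3, and cyclin G1 (Ccng1) in 20 and 7.

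Immediate early genes are commonly induced when tissue is dissociated and Btg2 is among those that respond, so they were counted as well. Of 26 listed genes 10 were in the table and 4 were tested, all 4 higher (median 17.6 points, thinned 8.64) and 0 of 4 without overlap. Klf6, a zinc finger factor, was detected in 29 and 14 cells, Gadd45b and Gadd45g, stress sensors, each in 11 and 4, and Ier5 in 9 and 4. Fos was found in 6 label-retaining and 2 non-label-retaining cells and Egr1 in 7 and 1, both under the minimum for a test. Of the genes of G1 to S entry, which the family is known to hold back, 8 of 24 were tested, 7 higher and 1 lower (cyclin D2, Ccnd2, -6.04 points), with medians of 23.9 points and 10.7 after thinning. E2f3, a factor that drives S phase genes, was detected in 16 and 3 cells and lay wholly above. The replication helicase genes Mcm7 and Mcm3 were detected in 13 and 1 and in 14 and 3 cells, and the kinase gene Cdk2 in 14 and 3. After thinning only cyclin D3 (Ccnd3) of this list lay wholly above (45.0 against 15.0%). Mki67, the proliferation marker, was found in 7 label-retaining cells and in 0 of the 28 others. This is under the minimum of 10 cells, so its difference was not tested and it has no thinned share. Averaged over all 6826 genes with any count, the detection share was 28.2% where the label was kept and 16.0% where it was not. A difference in proliferation was not tested. The 8 lists named 156 genes, of which 79 were in the table and 52 were tested. Of these 52 genes, 48 were higher from all counts and 44 after thinning (backgrounds 93.4 and 75.5%). Wholly above lay 4 from all counts and 2 after thinning (backgrounds 8.48 and 4.61%). Because the minimum of 10 cells counts both groups together, genes such as Trp53 and Mcm7 passed it on label-retaining cells alone. The background genes met the same minimum.

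The labelled cell type was checked against markers. Of 10 stem cell genes 5 were in the table, and Hlf was detected in 31 and 12 cells, Gata2 in 24 and 10 and Meis1 in 24 and 12, but Hoxb5 only in 2 and 0, and Slamf1, which encodes CD150, had no count in any cell. Together these genes took 0.0904 to 0.126% of the counts of label-retaining and 0.00109 to 0.240% of those of non-label-retaining repeats. Of the 3 cells with the highest Btg1 levels, non-label-retaining cells 28 and 17 had no count of them, and cell 1 had 0.0738%. The T and NK cell genes Trbc2, Nkg7 and Cd7, 3 of 8 listed, had no count. Of the neutrophil genes 5 of 8 were in the table, with Elane, Mpo and Ltf at 0 and at most 0.00618% of the counts of a repeat. Of the monocyte and macrophage genes 5 of 8 were in the table, with Csf1r, Ccr2 and Adgre1 at 0 and at most 0.00231%. Erythroid genes, 4 of 8 listed, were present in every repeat and took 0.143 to 9.35% of the counts of label-retaining and 0.386 to 3.18% of those of non-label-retaining repeats. The 3 tested erythroid genes, all of globin chains, had thinned detection shares that were lower in label-retaining cells, by -23.2 points for Hba-a1, -13.0 for Hba-a2 and -26.1 for Hbb-bs (exact permutation p = 0.143, 0.229 and 0.114), where 75.5% of all genes were higher. From all counts Hba-a1 was higher by 12.6 points, and the near-identical Hba-a1 and Hba-a2 may share reads. Erythroid genes took 2.83% of the counts of non-label-retaining cell 28 and 3.68% of cell 1, the 2 cells with the highest Btg1 levels, and 0.00348% of cell 17. B cell genes, 6 of 8 listed with Ighm and Vpreb3 at 0, took up to 0.545% of a label-retaining and 0.318% of a non-label-retaining repeat. They took 4.59% of the counts of label-retaining cell 16, whose Btg1 level was the fifth highest, and 0.00181% of non-label-retaining cell 28. Megakaryocyte genes, 4 of 8 listed with Gp9 at 0, took 0.0249 to 0.172% and 0.000192 to 0.0479%. All 3 that were tested had higher detection shares in label-retaining cells, as did 93.4% of all genes. After thinning, Itga2b was higher by 1.13 points and Vwf by 6.89, where the median of all genes was 6.32. Itgb3, which encodes the integrin beta chain of platelets, was detected in 30 and 9 cells. It lay wholly above from all counts (47.6 points) and after thinning (44.3 points), as did 8.48 and 4.61% of all genes. Its exact permutation p was 0.0286 in each measure, before adjustment. The part of these other markers in the Btg1 levels was not tested.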

How the data were processed

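Poly(A) RNA of 65 single cells was measured with the SMART-Seq v4 kit and Nextera XT libraries, per the labels' protocols, which name no marking of strand or molecule. The authors deposited estimated counts for each gene in each cell, on the mm10 build and with DESeq, per the submitters' processing notes. Not given in the sources used here are aligner, counter and versions. Although the authors' table is called normalized, cell totals run from 86 to 20516069 and a median of 72.4% of values between 0.5 and 20 are whole within 0.0001, so they were treated as unscaled estimated counts, rounded after summing. Identifiers were matched to RefSeq GRCm38.p6 (16216 of 18036 rows; the others held 0.130% of counts), and totals cover the genes of this table only.

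The members and gene lists were chosen with earlier results of these data known. The named genes were the 3 members, other BTG/TOB genes, up to 4 genes of each list with the largest absolute difference in detection share, and the 5 genes most alike to each member, of which 1 is not reported here. Tnrc6a, Smad2, Mapk3, Ccnd2, Ccnd3, Fos, Egr1 and Mki67 fall outside this rule and were chosen after their values were seen. Measures were the share of cells with a value above 0, the expected share after drawing 10000 counts without replacement, the mean of counts per 10000 over cells with at least 10000 counts, and sums per repeat. The first 3 were tested over repeats by exact permutation of the absolute difference for genes with a count in at least 10 cells, the sums with edgeR 4.0.16 (R 4.3.3; TMM, robust quasi-likelihood; genes whose per-cell means averaged at least 10 across the 8 sums), all with Benjamini-Hochberg adjustment at 0.05. In non-label-retaining repeats 3 and 4 the TMM factors were 0.290 and 0.223, elsewhere 1.44 to 2.04. The permutation, sign-flip, thinning and adjustment steps were tested on simulated data against direct calculation. The edgeR step was tested on simulated counts with known large changes, which it recovered nearly completely where the spread between repeats was small and not at all where it was large. Same-numbered repeats of the 2 groups deviated together (correlations 0.550, 0.295, 0.166 and 0.155), so the numbers were taken to pair the repeats. Without the resembling pair that spans the groups they were 0.331, 0.273, 0.150 and 0.123. With only the deepest library of each resembling set they were 0.313, 0.249, 0.147 and 0.114. Of the pairs with unlike numbers, label-retaining repeat 4 and non-label-retaining repeat 3 came closest (0.139 with all libraries). Only the sign flips and the block fits used the pairing, and all other tests were unpaired. The labels do not say that repeats are separate mice, so p-values measure the spread between repeats. Correlations of libraries and the 2 alternatives that leave out resembling libraries were chosen after seeing the data. Python 3.11.15, numpy 2.4.6, pandas 2.3.3, scipy 1.17.1 and DESeq2 1.42.0 were also used.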

Additional observations from a re-analysis of the deposited data

Results flagged for a closer look

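In 8 of the 18 sets of 4 repeats checked, the repeat at one end stood apart from the other 3 by Dixon's criterion, which chance meets in about 1 in 20 sets of continuous values; 6 of the 8 are sets of 3 zeros and a single positive value and another has 3 equal values, and such ties are bound to be marked. Btg1 was detected in 20.0% of the cells of non-label-retaining repeat 4 against 50% in each of the other 3, which is the set with 3 equal values. Non-label-retaining repeat 1 was the only non-label-retaining repeat with Btg2, at 12.5% of cells, 7.54% after thinning and a mean level of 0.0754 counts per 10000, all from 1 count in cell 1. It was also the only one with Tob1, at 50% of cells, 33.1% after thinning and a mean level of 1.81 counts per 10000. Among label-retaining cells, the Btg2 mean level of repeat 3, 1.96 counts per 10000, stood apart from 0.270, 0.00674 and 0. It rested mainly on cells 20, 21 and 22, whose libraries resemble each other.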

How the results depend on the processing

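The Btg1 difference in detection share kept its sign in all 19 alternatives (27.4 to 45.6 points). It passed the unadjusted exact threshold in 11 of them, a threshold that 8.48% of all genes passed in the main setting. It missed it when 10 or more counts were asked for (27.4 points, exact permutation p = 0.143), without cells under 10000 counts (31.1, p = 0.0571) and with the replicate block (38.3, p = 0.125). Leaving out repeats gave 30.8 to 43.1 points, and it also missed it without non-label-retaining repeat 4 (30.8, exact permutation p = 0.0571) and without any repeat number in both groups, where 3 against 3 cannot go below 0.1. The thinned Btg1 share passed at 50000 counts (43.9 points). The Btg1 mean level ran from -25.6 to -8.06 counts per 10000 when repeats were left out and passed without non-label-retaining repeat 2 (-25.4, exact permutation p = 0.0286). The share of all genes that pass is not given at 50000 counts or without that repeat. Btg2 stayed higher in label-retaining cells, and did not pass the threshold, in all alternatives with a p. DESeq2 gave it no adjusted p. Tob1 changed sign most. Its thinned share was 1.64 points at 20000 counts, 14.3 at 50000 and -7.13 to 6.34 when repeats were left out. Its detection share then ran from -1.85 to 24.1 points, its mean level from -0.546 to 0.0843 counts per 10000 and its summed log2 fold change from -1.37 to 10.6. That fold change was 0.14 with total counts, 0.29 without the filter and 2.36 with the replicate block. Non-label-retaining repeat 1 turned the sign of the thinned share (6.34 without it), of the mean level (0.0843 without it) and of the summed fold change (10.6 without it). Without label-retaining repeat 2 the thinned share was 0.18 points and the fold change 0.24, and without repeat 3 of both groups the detection share was -1.85 points. edgeR called 0 genes in all its settings and DESeq2 11. The replicate block changed no other call. The cause of these changes was not tested. A gene without a count in a cell was not detected in that library, which does not show that it was absent.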

Other observations

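Tob1 shared the pattern of neighbouring library numbers. Of its 13 libraries, 10 had a neighbour by number with a Tob1 count. Label-retaining cells 20 to 24 carried numbers 39 to 43 and held 32, 19, 21, 1 and 5 counts, and non-label-retaining cells 2, 3 and 4 carried numbers 16 to 18 and held 2, 74 and 17. For Btg1, which is in most label-retaining libraries, 34 of 41 had such a neighbour. Because the numbers run in blocks of a single repeat and group, genes concentrated in a block have such neighbours. No share is given for genes other than the 3 members. Label-retaining cell 17 of repeat 2, with 3910113 counts and 2073 genes, was the deepest cell without any of the 3 genes.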
